A study of Mus musculus with 8 samples.

Results

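The genes described here encode 10 apolipoproteins, the proteins that coat lipoprotein particles and direct where their lipid goes: Apoa1, Apoa2, Apoa4, Apoa5, Apob, Apoc1, Apoc2, Apoc3, Apoe and Apom. They were chosen by symbol, as all 16 probes whose array gene name equalled a member's symbol, and they are 10 of the 28104 genes on the array. RNA was from livers of C57BL/6J mothers and of their male fetuses on gestation day 18, with no genetic change in any group. Control mothers ate freely, and food-restricted (FR) mothers received 50% of the food from day 10 to day 17 of gestation. Each diet had 6 mothers, from each of which 2 male fetuses were taken. Pooling preceded measurement, so each value is that of a pool: 1 control and 1 FR pool of 6 mothers, 1 control and 1 FR pool of 6 fetuses, and 2 control and 2 FR pools of 3 fetuses. The labels do not say which litters entered which pool. With 2 fetuses from each of 6 mothers, the fetal pools of a diet cannot all come from different mothers. They are therefore not independent litters, and p-values measure the spread between these pools only.

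Apolipoproteins of the liver enter blood on very-low-density and high-density lipoproteins. Apob is the scaffold of the particles that carry triglyceride out of the liver, and it stays with its particle for life. Apoa1 and Apoa2 are the main proteins of high-density lipoprotein. The small exchangeable proteins set how fast triglyceride is taken off: Apoc2 is the required cofactor of lipoprotein lipase, Apoa5 promotes that lipase's work and Apoc3 slows it. Apoe is the ligand by which remnants are cleared from blood through cell-surface receptors. In the mouse, Apoa1, Apoc3, Apoa4 and Apoa5 are neighbours on chromosome 9, and Apoe, Apoc1 and Apoc2 are neighbours on chromosome 7. In the fetus, the yolk sac and intestine also make several of these proteins.

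Each gene was read through DNA probes of 60 bases. The probe sequences below belong to the genes whose levels differed most between mothers and fetuses, and each shows a stretch of the transcript that was measured. Coordinates are of mm9. The Apoa5 probe lies at chr9:46078579-46078638 on the plus strand, before the gene's other probe, which lies at chr9:46079082-46079141, is the brighter and gave the Apoa5 values below unless the other is named. The Apoa4 probe maps to chr9:46049661-46050404 on the plus strand, 744 bases for 60 letters, so it crosses an intron. The Apoc3 probes lie on the minus strand at chr9:46041353-46041412 and chr9:46041363-46041422. Capitals mark the 50 bases that both Apoc3 probes hold, so these 2 probes read nearly the same stretch and are not independent checks of each other. No gene annotation of mm9 was used here, so exons and untranslated regions are not stated.
Apoa5 probe: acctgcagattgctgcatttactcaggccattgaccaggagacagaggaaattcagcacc
Apoa4 probe: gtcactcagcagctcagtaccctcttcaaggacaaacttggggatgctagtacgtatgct
Apoc3 probe 1: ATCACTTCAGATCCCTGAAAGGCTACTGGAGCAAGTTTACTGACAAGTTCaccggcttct
Apoc3 probe 2: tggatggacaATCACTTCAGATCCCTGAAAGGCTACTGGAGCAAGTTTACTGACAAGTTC

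Of the 10 genes, 8 had a promoter entry in the RefSeq table used (GRCm38.p6). The 250 bases before the start of Apoa1, Apoa4 and Apoa5 are shown because these neighbours on the plus strand of chromosome 9 differed in behaviour: Apoa4 and Apoa5 were several-fold higher in mothers than in fetuses and Apoa1 was not, and of these 3 only Apoa5 was called in fetuses of FR mothers. The windows are chr9:46228380-46228629 for Apoa1, chr9:46240594-46240843 for Apoa4 and chr9:46268358-46268607 for Apoa5. Capitals mark matches, on either strand, to 4 short motifs. The nuclear receptor half-site was searched as AGGTCA. The E-box was searched with the letters CACGTG, which read the same on both strands. The forkhead core was taken as TGTTTNC, where N is any base. The TATA box was taken to be the letters TATAAA. No printed motifs overlapped. The Apoa5 window held an E-box, a forkhead core and a TATA box, which began 82, 75 and 31 bases before the start. The Apoa1 window held forkhead cores 88 and 75 bases before the start, and the Apoa4 window held none of the 4 motifs. Among all 32851 promoter windows of this length, 6.02% held the E-box, 17.8% the forkhead core, 12.4% the TATA box and 14% the nuclear receptor half-site. A match describes the letters and is not a bound site.
Apoa1 promoter: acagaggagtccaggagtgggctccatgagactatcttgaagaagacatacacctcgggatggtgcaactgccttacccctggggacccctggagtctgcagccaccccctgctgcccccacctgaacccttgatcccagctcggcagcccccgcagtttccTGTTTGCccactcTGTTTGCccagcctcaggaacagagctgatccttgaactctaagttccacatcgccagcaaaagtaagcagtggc
Apoa4 promoter: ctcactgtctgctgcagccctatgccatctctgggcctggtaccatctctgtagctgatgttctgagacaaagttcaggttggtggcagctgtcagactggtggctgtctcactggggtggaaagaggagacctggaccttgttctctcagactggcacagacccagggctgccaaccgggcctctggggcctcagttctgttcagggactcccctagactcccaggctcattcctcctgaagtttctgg
Apoa5 promoter: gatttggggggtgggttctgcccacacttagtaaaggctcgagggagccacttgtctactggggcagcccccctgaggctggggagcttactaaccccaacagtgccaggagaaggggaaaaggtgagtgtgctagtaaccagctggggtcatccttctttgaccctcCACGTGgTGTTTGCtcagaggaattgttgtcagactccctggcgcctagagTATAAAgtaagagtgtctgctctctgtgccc

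Each of 8 Agilent 2-colour arrays on 2 slides compared an FR pool with its control, and every pool pair was measured a second time with the dyes exchanged. Slide 1 held the pools of 6 (mothers and fetuses) and slide 2 the pools of 3. The median signal of all probes on an array was 70 to 284 for Cy3 and 122 to 310 for Cy5, with local backgrounds of 46 to 68. All 34 member spots were well above background and none was saturated on any array. On slide 1, however, 26 to 33 of the 34 were marked as non-uniform in Cy3, against 0 on slide 2, and they were kept. The highest Cy3 signal of any member was 47158 on slide 1 and 116819 on slide 2, while the highest Cy5 signals were 291092 and 351873.

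For several members with high signal, both dye orientations of a pool pair disagreed. In mothers, the log2 ratio with FR in Cy5 exceeded the ratio with FR in Cy3 by 2.84 for Apoa2, 2.81 for Apoc1, 2.59 for Apoc2 and 2.57 for Apoe. The same gap was 0.52 to 1.46 for these 4 genes in the pools of 3, and -0.24 to 0.29 for Apoa4, a dim probe, over all 4 pool pairs. The mean of both orientations cancels a dye effect of equal size, and it is the value given for a pool pair below.

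**Figure D1:**
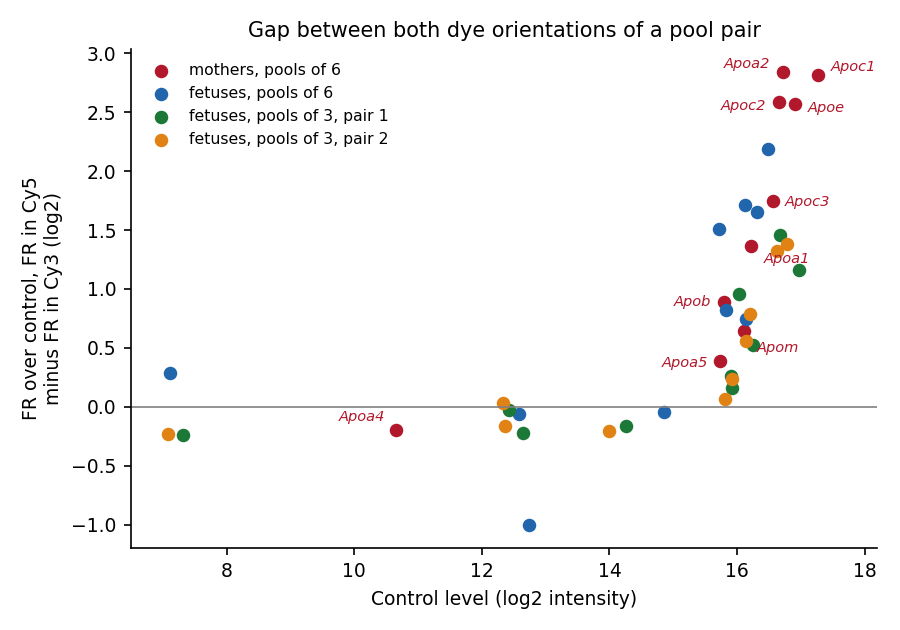
Gap between both dye orientations (log2 ratio with FR in Cy5 minus log2 ratio with FR in Cy3, vertical) against control level (log2 intensity, horizontal) for the probe read of each of the 10 genes, 1 point per gene and pool pair, with names beside the maternal points. The points of Apoa4 lie between -0.24 and 0.29, and the maternal points of Apoa2, Apoc1, Apoc2 and Apoe lie between 2.57 and 2.84.

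In fetal livers, Apoa5 and Apoc2 were higher when the mother had been food-restricted, and the other 8 genes were not called. Apoa5 rose 3.07-fold and Apoc2 1.504-fold, the latter a mean that rested on the arrays with FR in Cy5. The value of a gene is its log2 ratio (FR to control), averaged over both arrays of a pool pair and tested over the 3 pool pairs with limma (Benjamini-Hochberg adjustment over all genes, threshold 0.05). With 2 of 10 higher and 0 lower, the members stand beside 11.4% higher and 14.3% lower over all 21072 genes tested. At an unadjusted p under 0.05 there were 3 members, Apoa1, Apoa5 and Apoc2, and none of the 3 was lower; over all genes 8507 of 21072 were under that p. The median over the 10 genes was 0.12, against 0.01 over all genes.

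Apoa5, which promotes triglyceride removal, was above 0 on all 6 fetal arrays. In the pools of 6 the log2 ratio was 1.44 with FR in Cy5 and 2.44 with FR in Cy3. In pair 1 of the pools of 3 it was 0.64 and 0.86, and in pair 2 it was 2.08 and 2.25. Pair 1 was thus the lowest, by more than the gap between its own 2 arrays. The mean was 1.62 ± 0.76 (SD, n = 3 pool pairs; limma adjusted p = 0.0176). The second Apoa5 probe, shown above, gave 1.44, 0.52 and 1.78 in the same order, the first from 1 array because the spot on the other was left out as an outlier. Without the pools of 6 the mean was 1.46 and the call was lost (adjusted p = 0.0955), but with those 2 pool pairs alone limma called 0 of 21350 genes, 6177 of them being under an unadjusted p of 0.05. Scaling the ratios between arrays also ended the call (adjusted p = 0.107), again with 0 genes called. Over the alternative settings that gave a value, the mean ran from 1.35 to 2.05 and the adjusted p from 0.00109 to 0.107.

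Apoc2, the lipase cofactor, had log2 ratios of 0.84, 0.59 and 0.34 in the pools of 6 and in pairs 1 and 2 of the pools of 3, a mean of 0.59 ± 0.25 (SD, n = 3; limma adjusted p = 0.0170). The rise came from the arrays with FR in Cy5, at 1.69, 1.07 and 0.73, whereas the arrays with FR in Cy3 gave -0.02, 0.11 and -0.06. Fitted alone, the Cy5 orientation gave 1.17 (adjusted p = 0.00475) and the Cy3 orientation 0.01 (adjusted p = 0.915). The call was also lost without the pools of 6 (0.47, adjusted p = 0.0723), without pair 1 of the pools of 3 (0.59, adjusted p = 0.0579) and with scaling between arrays (adjusted p = 0.0808). It held, at an adjusted p of 0.00951, in a fit of the 6 arrays with a dye term and the pool pair as a random block.

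Among the high-density lipoprotein genes, Apoa1 gave 0.56, 0.05 and 0.34 (mean 0.31 ± 0.25, SD, n = 3; limma adjusted p = 0.0802). All 3 pairs were above 0, although the pair 1 value was near it, and Apoa1 passed the threshold without that pair (0.45, adjusted p = 0.0339). Apoa2 gave 0.17, -0.18 and -0.07, and Apom, the carrier of sphingosine-1-phosphate, gave 0.21, -0.09 and -0.17. Neither had a direction shared by the 3 pairs.

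Apoa4, an exchangeable protein best known from the intestine, differed between the fetal pool pairs. Its log2 ratio was 0.31 in the pools of 6, -0.04 in pair 1 and 1.13 in pair 2 of the pools of 3, and both arrays of pair 2 were high (1.02 and 1.25). The mean of 0.47 ± 0.60 (SD, n = 3) was not called (limma adjusted p = 0.182). Apoc3, the lipase inhibitor, was lower in pair 1 (-0.82 and -0.79 on its 2 arrays) and higher in pair 2 (0.50 and 0.46), with -0.23 and -0.17 in the pools of 6. Its orientations differed by at most 0.06, so the spread of 0.64 (SD, n = 3) lay between pools, and its mean of -0.18 was not called (adjusted p = 0.626). Apoa4, Apoa5, Apoc3 and Apob each had their highest fetal ratio in pair 2.

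Of the remaining members, Apoc1, which hinders receptor uptake of remnants, gave -0.04, -0.49 and -0.14 (limma adjusted p = 0.147), and it passed the threshold with Agilent's processed signals (-0.37, adjusted p = 0.0355). Its orientations had opposite signs in all 3 pairs, from -1.14 to -0.83 with FR in Cy3 and from 0.09 to 1.05 with FR in Cy5. Apoe gave 0.51, -0.18 and 0.23 (adjusted p = 0.349), also with opposite signs between orientations in every pair. Each orientation of Apoc1 or Apoe fitted alone passed the threshold in the direction of its own dye, so neither gene has a direction here. Apob gave -0.16, 0.04 and 0.30 (adjusted p = 0.669), and over its 5 probes the fetal means ran from -0.12 to 0.07.

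**Figure D2:**
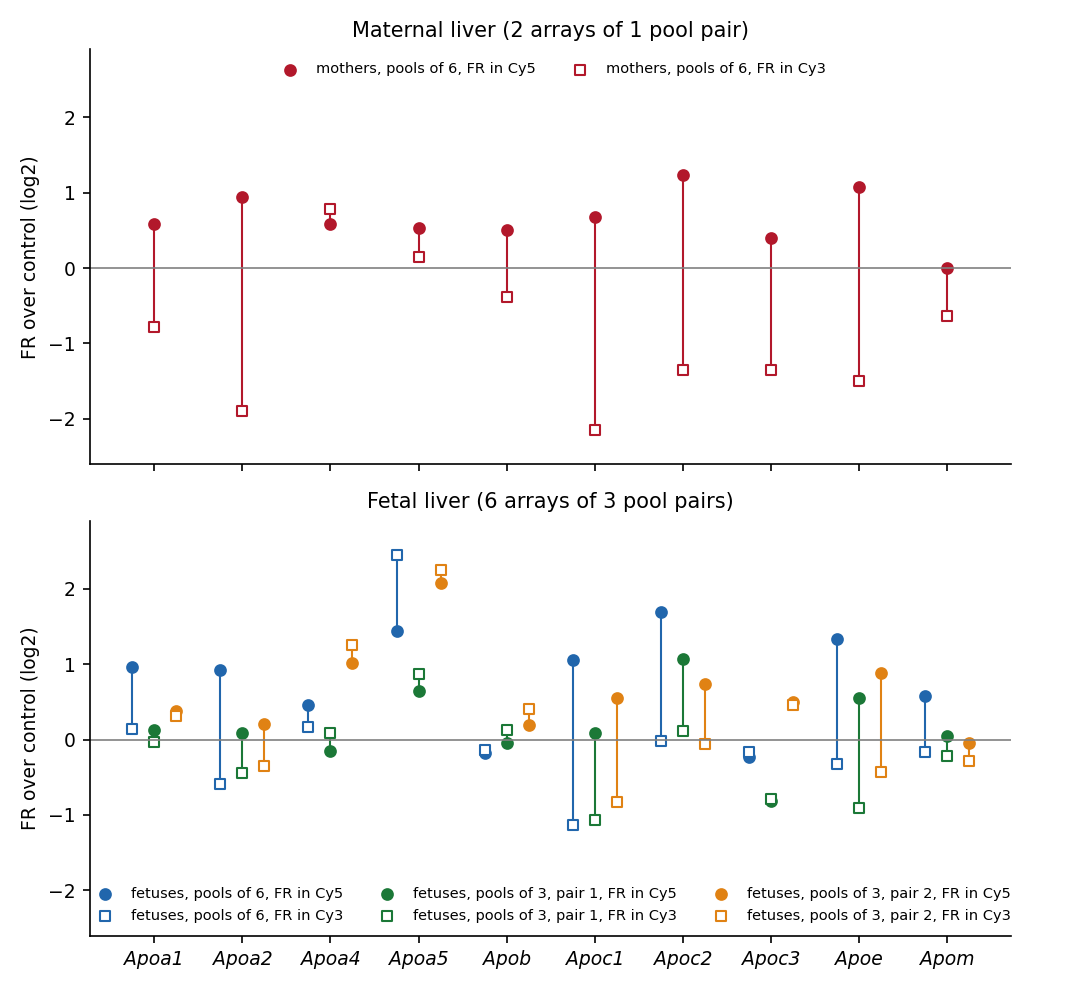
FR over control (log2 ratio, vertical) for each apolipoprotein gene on every array, with mothers above and fetuses below. Filled circles are arrays with FR in Cy5, open squares arrays with FR in Cy3, lines join both arrays of a pool pair, and colours are pool pairs. Apoa5 lies above 0 on all 6 fetal arrays, and in mothers only Apoa4 and Apoa5 have both arrays on the same side of 0.

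In mothers, no apolipoprotein gene changed by the rule used there. With 1 pool pair there is no replicate and no test, so a gene was called where it passed 2-fold the same way on both arrays. That rule called 0 of the 10 members, and over all 19493 genes it called 0.985% higher and 1.15% lower. The median over the members was -0.16, against 0.00346 over all genes. Only Apoa4 and Apoa5 had the same sign on both arrays.

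Maternal Apoa4 was higher under FR by 0.59 with FR in Cy5 and by 0.78 with FR in Cy3, a mean log2 ratio of 0.68 or 1.61-fold. It passed 1.5-fold on both arrays, the only member to do so. Maternal Apoa5 was higher by 0.53 and 0.14, a mean of 0.33. The others lay on both sides of 0: Apoc1 at 0.67 and -2.14, Apoa2 at 0.95 and -1.90, Apoe at 1.07 and -1.50, Apoc2 at 1.23 and -1.36, Apoc3 at 0.39 and -1.35, Apoa1 at 0.59 and -0.78, Apob at 0.51 and -0.38, and Apom at 0.01 and -0.64, each with FR in Cy5 first. For these 8 genes the maternal ratio has no settled direction. For Apoc3, the Cy5 signals on slide 1 were 9882 and 11054.5 in fetuses, where the orientations differed by 0.06, and 124885.5 and 172379.5 in mothers, where they differed by 1.74. The part of dye and signal in the maternal values was not tested.

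No member's maternal response differed from its fetal response in the test of that difference (limma on group means over 4 pool pairs, the lone maternal pair being assumed to vary like the fetal ones). The counts were 0 higher and 0 lower of 10, and over all 18939 genes 2.03% were called higher in mothers and 2.1% lower. At an unadjusted p under 0.05 there were 3 members, beside 4182 of the 18939 genes. Apoc2 had the lowest adjusted p, 0.148, with -0.06 in the mothers and 0.59 in the fetuses. Apoa5 had the largest difference, 0.33 in the mothers against 1.62 in the fetuses, or -1.28 (adjusted p = 0.267), and -1.61 within slide 1. It passed the threshold only without pair 1 of the pools of 3 (-1.72, adjusted p = 0.0147). Apoc2 passed only without pair 2 (-0.78, adjusted p = 0.0438), or with FR in Cy3 alone (-1.37, adjusted p = 0.00698).

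Levels in control livers separated the family clearly. Apoc3, Apoa4 and Apoa5, 3 neighbours on chromosome 9, were 8.90- to 17.3-fold higher in mothers than in fetuses. Levels are log2 intensities of the control channel, averaged over both dyes. The maternal control pool was compared with the 3 fetal control pools by limma. The lone maternal pool has no spread of its own and was assumed to vary like the fetal pools. The SE and p-values of levels therefore rest on the fetal pools, and mothers and fetuses never shared an array. With 5 of 10 higher in mothers and 0 lower, the members stand beside 17.5% higher and 18.6% lower over all 20845 genes tested. The median difference was 0.61 over the members and -0.02 over all genes. As RNA was from whole livers, a lower level can mean fewer cells of a type or less RNA per cell, which cannot be told apart.

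Apoc3 stood at 16.56 in the maternal pool and at 12.58, 12.42 and 12.32 in the fetal pools of 6 and in pairs 1 and 2 of the pools of 3. The difference of 4.12 is 17.3-fold (SE 0.17, limma adjusted p = 0.00016), and it was 3.98 within slide 1. The other Apoc3 probe gave 4.53. Apoa4 stood at 10.65 against 7.12, 7.31 and 7.09, a difference of 3.48 or 11.1-fold (SE 0.16, adjusted p = 0.000228), and 3.53 within slide 1. Apoa5 stood at 15.74 against 12.74, 12.65 and 12.37, a difference of 3.15 or 8.90-fold (SE 0.20, adjusted p = 0.000471), and 3.00 within slide 1. Its other probe gave 3.39. Fetal Apoa4 was dim, with control levels at percentiles 39.7 to 45.0 of all probes. Its difference depended on the background offset and was 3.95 at normexp offset 10. For these 3 genes the fetal pools lay close together and the maternal pool far above them. Each was called in every alternative that gave a test, down to 2.39 for Apoa5 with no normalization between arrays, but Apoc3 and Apoa5 gave no value once Cy3 non-uniform spots were left out.

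The other gene of that cluster, Apoa1, did not share this pattern. It stood at 16.23 in mothers and at 15.83, 15.92 and 15.81 in fetuses, a difference of 0.37 that was not called (adjusted p = 0.105). Among the neighbours just outside this cluster, the 4 with a measured probe were not called either, with a median difference of -0.03. Apoc2, on chromosome 7, stood at 16.66 against 16.12, 16.04 and 16.20, a difference of 0.54 that was called (adjusted p = 0.0435). It was 0.91 with control in Cy5 and 0.17 (adjusted p = 0.624) with control in Cy3. It also lost the call at normexp offset 10 (0.54, adjusted p = 0.0667) and without loess (0.41, adjusted p = 0.223). The call was lost under quantile normalization of all channels (0.31, adjusted p = 0.332) and with no normalization between arrays (-0.47, adjusted p = 0.422). The same held without pair 1 (0.50, adjusted p = 0.171) or pair 2 (0.58, adjusted p = 0.0938) of the pools of 3. With slide as a fixed block it was 0.54 and was not called.

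The other members had high signal in both. Apoa2 stood at 16.71 against 15.72, 16.25 and 16.15 (difference 0.67, adjusted p = 0.0925), Apoc1 at 17.27 against 16.48, 16.96 and 16.79 (0.53, adjusted p = 0.136), and Apoe at 16.91 against 16.32, 16.67 and 16.63 (0.37, adjusted p = 0.204). For these 3 the maternal pool lay above all fetal pools, but the differences were not called. All 3 passed the threshold with slide as a fixed block, which sets the mothers against the fetal pools of 6. The differences there were 0.99 for Apoa2, 0.79 for Apoc1 and 0.60 for Apoe. The only spread in that fit is between the pools of 3, so these calls do not measure the spread of the pools compared. Apoa2 was also called without the pools of 6 (0.51, adjusted p = 0.0275), a setting that called a larger share of all genes. With control in Cy5 only, Apoa2 and Apoc1 were called (1.08 and 0.57). With no normalization between arrays the 3 differences were below 0. That setting moved the median of all genes to -0.94, so relative to it they stayed above. Apom stood at 16.11 against 16.14, 15.90 and 15.92 (0.12, adjusted p = 0.608), with the maternal value inside the fetal range.

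**Figure D3:**
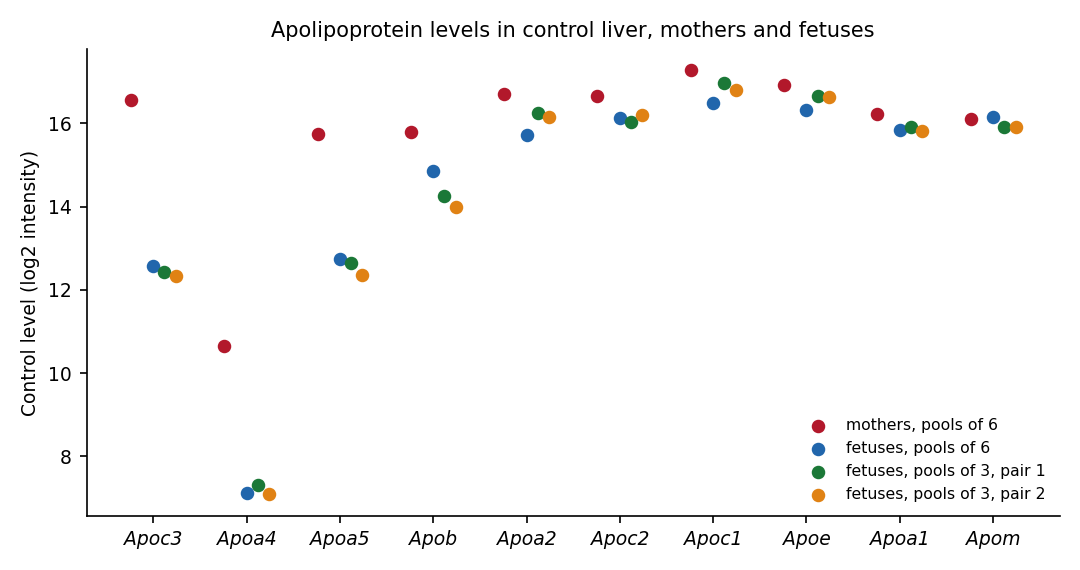
Control level (log2 intensity, vertical) of each apolipoprotein gene in the maternal control pool and the 3 fetal control pools, 1 point per pool and both dyes averaged, with genes ordered by the difference between mothers and fetuses. Maternal Apoc3, Apoa4 and Apoa5 lie 3.15 to 4.12 above the fetal means, and the maternal and fetal points of Apom overlap.

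Apob gave a different answer by probe. It has 5 probes, taken here in 5′ to 3′ order. The first lies at chr12:8005482-8007691 and the last at chr12:8023194-8023253 (mm9, plus strand). The gene spans 39211 bases (GRCm38.p6), so the probes cover only part of it. The last probe is the brightest and was read for the gene. The last probe stood at 15.79 in mothers against 14.86, 14.26 and 14.00 in fetuses, a difference of 1.42 or 2.68-fold (SE 0.35, adjusted p = 0.0310), and 0.93 within slide 1. The adjacent probe gave 1.42 too, while the 3 before it gave, in order, 0.55, 0.39 and 0.88. With the mean of all 5 probes Apob was not called (0.93, adjusted p = 0.14), and the read probe lost the call without pair 1 of the pools of 3 (1.37, adjusted p = 0.074).

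The pools of 6 and the pools of 3 differed for Apob by position. Over the first 3 probes the fetal control pools of 6 lay below the pools of 3, with log2 differences of -2.43, -2.30 and -1.62. Over the last 2 they lay above them, with differences of 0.89 and 0.73. Maternal values against the fetal pools of 6, all on slide 1, were therefore 2.17, 1.92 and 1.96 higher at the first 3 probes and 0.83 and 0.93 higher at the last 2. Against the pools of 3 on slide 2 they were -0.26, -0.38 and 0.34 at the first 3 and 1.72 and 1.66 at the last 2. At the first 2 probes the maternal level was thus above the pools of 6 and below the pools of 3, and at the last 3 it was above both. The FR pool of 6 fetuses showed the same low values at the first 3 probes (9.41, 11.58 and 9.43) as its control (9.42, 11.40 and 9.50), so the FR ratios of these probes stayed between -0.07 and 0.19. Apoa5 had a similar but smaller shift between its 2 probes, where the pools of 6 differed from the pools of 3 by -0.32 at the first and by 0.24 at the second. What sets these differences was not tested.

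**Figure D4:**
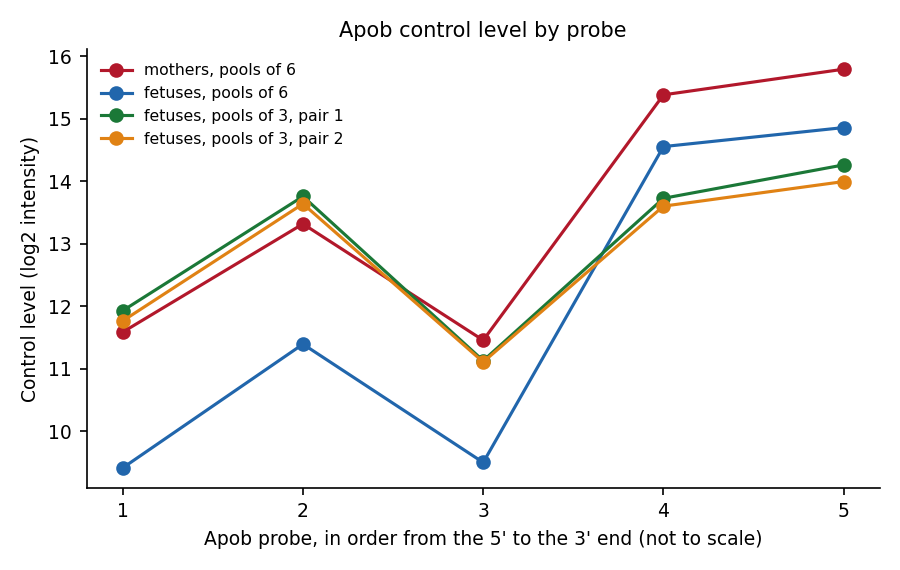
Control level (log2 intensity, vertical) of the 5 Apob probes in 5′ to 3′ order (horizontal, not to scale) in the maternal and the 3 fetal control pools. The probes cover only part of the gene. The fetal pools of 6 differ from the pools of 3 by -2.43 to -1.62 at the first 3 probes and lie above them at the last 2.

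Among the 82 listed genes of lipoprotein handling, more fell than rose in fetuses. Of 79 measured, 5 rose and 29 fell, beside the 11.4% and 14.3% of all genes given above. The lists were chosen with earlier results of these data known, so their counts describe the listed genes and test nothing. Of 12 lipases, transfer proteins and efflux pumps measured, 1 rose and 7 fell. Angptl4, a secreted lipase inhibitor induced by fasting, rose by 1.05 ± 0.14 (log2, SD, n = 3 here and below; limma adjusted p = 0.00481), and Angptl8, an insulin-induced inhibitor, changed by -1.07 ± 0.27 (adjusted p = 0.00713). Hepatic lipase Lipc was at -0.47 ± 0.20 and the cholesterol exporter Abca1 at -0.43 ± 0.18. Of 13 genes of particle assembly and Apob mRNA editing, 5 fell and none rose, led by Sort1 (-0.54 ± 0.19), A1cf (-0.54 ± 0.30), the editing enzyme Apobec1 (-0.31 ± 0.07) and Sar1b (-0.28 ± 0.05). Mttp, which loads lipid onto Apob, was at -0.14 ± 0.09 and was not called. The median over the assembly list was -0.14.

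Of 16 receptor and uptake genes, 2 rose and 4 fell, among them Lsr, a receptor for triglyceride-rich particles (-0.40 ± 0.13), while Mylip, a ubiquitin ligase, was at 0.40 ± 0.14 and the fatty acid receptor Cd36 at 0.41 ± 0.27. Of 27 transcriptional regulators measured, 2 rose and 10 fell. Ppargc1a, a coactivator of fasting metabolism, was at 0.61 ± 0.34, Cebpa at -0.71 ± 0.37, the liver X receptor Nr1h3 at -0.64 ± 0.39 and Foxa2 at -0.62 ± 0.40, all 4 called. Of 11 other apolipoproteins and proteins bound to high-density lipoprotein, 3 fell: Saa1 (-0.68 ± 0.15), Pon3 (-0.63 ± 0.15) and Saa4 (-0.40 ± 0.12). With Cy3 non-uniform spots left out, Mylip turned to -0.11 and Saa1 to 0.000345. Apoc4, which lies inside the Apoe cluster, was at 0.18 ± 0.27 and was not called. None of the 4 measured neighbours of the Apoa1 cluster was called, and of 8 outside the Apoe cluster 1 was, Relb (-0.42 ± 0.17), an NF-kappaB subunit.

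In mothers, 2 of 76 measured genes of these lists were called higher and 4 lower, beside 0.985% and 1.15% over all genes. Angptl4 was higher by 1.89 and 1.94 on its 2 arrays, a log2 mean of 1.91, and Ppargc1a by 1.15 and 1.32. Angptl8 (mean -1.29), Saa1 (-1.50), the estrogen receptor Esr1 (-1.37) and Onecut1 (-1.10) were lower, and both arrays of each passed 2-fold.

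In control livers, 39 of 79 measured genes of these lists were higher in mothers and 7 lower. Over all genes, 17.5% were called higher and 18.6% lower. Among the other apolipoproteins and high-density lipoprotein proteins, 9 of 11 were higher and 0 lower, with a median of 1.59, led by Saa2 (5.08), Apon (4.47), Clu (2.59) and Pon1 (2.53). Saa1 and Saa2 are near-identical copies whose probes may share signal. Lpl, lipoprotein lipase itself, was lower in mothers, at 10.86 against 14.86 in fetuses, a log2 difference of -4.01 (adjusted p = 0.000119). Of 12 lipases, transfer proteins and efflux pumps 6 were higher, among them Lcat, which esterifies cholesterol on high-density lipoprotein (1.68), and Lmf1 (1.53), and 2 were lower, Lpl and the exporter Abcg1 (-1.02). Of 13 assembly genes 7 were higher, among them Tm6sf2 (1.43), Cideb (1.25) and Sar1b (1.25), and only Sort1, a sorting receptor that binds Apob, was lower (-2.40). Of 16 receptor genes 4 were higher, Cd36 (1.44) and Lrp1 (1.42) among them, and 3 were lower. Of the regulators 13 of 27 were higher, among them Esr1 (3.17), Nr0b2 (2.51), Mlxipl (2.12) and Nr1h3 (2.02), and among the receptors Sdc1, a heparan sulfate proteoglycan that takes up remnants, was 3.11 higher. Within the Apoe cluster, Apoc4 was higher by 1.12 (adjusted p = 0.00398). Outside it Zfp296 was 0.81 higher (-0.36 with no normalization between arrays), and Clasrp (-1.21) and Bcam (-0.95) were lower.

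The genes whose 4 pool-pair ratios lay nearest those of Apoa5 were Hamp (distance 0.52 on the log2 scale), Akr1b7 (0.65), Lrtm1 (0.68), Rnase4 (0.70) and Tmem141 (0.71), of 18939 genes. Hamp, which encodes the iron hormone hepcidin and has a near-identical copy, gave 0.21 in mothers and 2.35, 0.76 and 1.87 in the 3 fetal pairs, where Apoa5 gave 0.33, 1.94, 0.75 and 2.16. The nearest member to Apoa5 was Apoa4, at a distance of 2.11. For Apoc1, the member with the largest maternal value (-0.74), the nearest were H2-K2 (0.07), Apol7a (0.09), Ctss (0.11), Apol7c (0.12) and Ly86 (0.13). The Apoc1 value averages orientations of opposite sign. Among the members the closest pairs were Apoa2 with Apom (0.21) and Apoa1 with Apoe (0.28).

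Markers of cell types were read on the same arrays. All 9 hepatocyte markers measured were well above background in every pool. Their summed log2 level was 19.61 and 19.48 in control and FR mothers, 19.32 to 19.58 in control fetuses and 18.96 to 19.21 in FR fetuses. In fetuses 5 of the 9 fell, among them Ttr (-0.97 ± 0.39), Fgb (-0.66 ± 0.29) and Trf (-0.55 ± 0.37). The 1 that rose was Cps1 (0.67 ± 0.42). Beside the fetal marker counts of this paragraph stand 11.4% higher and 14.3% lower over all genes. With lists this short, 1 or 2 called genes are not read as a result. Of 10 markers of other blood cells 8 fell, from a summed level of 18.34 to 18.37 in control to 17.62 to 17.77 in FR fetuses. Of 8 erythroid markers 1 fell and none rose, at 18.33 to 18.85 and 18.74 to 19.10. Of 7 markers of exocrine pancreas measured 3 rose, among them Amy2 (1.27 ± 0.35) and Cela1 (0.57 ± 0.17). Their summed level, over all 8 listed, went from 11.76 in control to 12.81 in FR fetuses in the pools of 6. It went from 11.95 to 12.44 in pair 1 of the pools of 3 and from 12.31 to 13.13 in pair 2. Amy2 had the highest level of the list in every FR fetal pool. In pair 1, Cpa1 went from 7.71 to 7.45 and Ctrb1 from 10.32 to 10.31. The part of pancreatic tissue in the Apoa5 result was not tested. Of 8 endothelial markers 3 fell, of 8 stellate markers 2, of 5 bile duct markers measured 2 and of 10 Kupffer cell markers 3, and only among the last did any rise, 2 of 10.

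Between control mothers and fetuses the blood cell markers differed most. All 8 erythroid markers and 9 of 10 markers of other blood cells were lower in mothers, with medians of -4.19 and -4.22. The Kupffer cell markers were lower for 6 and higher for 2 of 10. Over all genes, 17.5% were higher in mothers and 18.6% lower. Hepatocyte markers were higher for 3 of 9 and lower for none, with a median of 0.15 and Asgr1 the largest at 2.59. This difference in makeup lies beside every difference in level above, and its part was not tested. Of 8 intestinal markers, 2 were well above background in mothers and 5 in fetuses, with summed levels of 14.30 and 13.29 in control and FR mothers, 11.16 to 11.25 in control and 11.04 to 11.58 in FR fetuses. Fabp2, Vil1, Sis, Lct and Muc2 were well above background in every fetal pool, and Fabp2 and Sis in both maternal pools. Cdx1, Cdx2 and Cdh17 were well above background in no pool. The part of intestinal tissue in the values above was not tested. Fabp2 was at 14.26 in control mothers and 10.10 to 10.29 in control fetuses. The yolk sac and placenta list was low in all pools, with a summed level of 10.43 to 11.13.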

How the data were processed

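Liver RNA (QIAGEN RNeasy), 1000 ng per pool, was amplified, labelled with Cy3 and Cy5 and hybridised to Agilent mouse arrays, per the labels' protocols. Per the file headers, the deposited spot intensities came from Agilent Feature Extraction 9.5.3.1 (slide 1, mean spot signal) and 11.0.1.1 (slide 2, median spot signal). The authors' deposited log10 ratios were Cy5 over Cy3 and equalled the log10 ratio of the files' processed signals to within 5e-08. Their medians lay between -0.0184 and 0.0155. They were used as an alternative. Some descriptions conflict with the titles, which name the tissue, stage, diet and dye, and the titles were followed.

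Here, intensities as deposited were corrected with normexp (offset 50) and loess within each array, control spots having weight 0, in limma 3.58.1 (R 4.3.3). Levels used Aquantile scaling between arrays. Values are log2. Ratios were turned to FR over control, and both arrays of a pool pair were averaged into 1 replicate. The brightest probe stood for a gene, provided that on each array of the comparison at least 1 diet's channel was well above background. Spots marked by Feature Extraction as population outliers in either dye, or as non-uniform in Cy5, were left out. Spots marked as non-uniform in Cy3 were kept. Tests were lmFit and eBayes with Benjamini-Hochberg adjustment over all genes (threshold 0.05), and the maternal rule was 2-fold on both arrays. The script was tested on simulated data. Current names came through the accession for 26918 of 41174 probes, through the symbol for 5082 and through an older symbol for 817, and 8357 kept the name in the file.

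All 10 members were named. Of each related list, up to 4 called genes with the largest values per comparison were named, with any called neighbour of the clusters and the 5 genes nearest, by Euclidean distance over 4 pool pairs, to the members with the largest fetal and maternal values. Mttp, Apoc4 and the cell type markers were added after their values were seen. Members and lists were chosen with earlier results of these data known. Some genes that the rule names are not reported here.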

Additional observations from a re-analysis of the deposited data

Results flagged for a closer look

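Maternal and fetal responses differed, by the limma test of the difference over 4 pool pairs, for 3 of the related genes and for no apolipoprotein gene. Angptl4, a lipase inhibitor, was higher under FR in both, by 1.91 in mothers and 1.05 ± 0.14 (SD, n = 3) in fetuses, a log2 difference of 0.86 (adjusted p = 0.0406) and 0.71 within slide 1. Mia3, which helps to export large cargo from the endoplasmic reticulum, was at 0.44 in mothers and -0.115 ± 0.03 in fetuses, a difference of 0.56 (adjusted p = 0.0443) and 0.53 within slide 1. Saa1, an acute-phase protein of high-density lipoprotein, was at -1.50 in mothers and -0.68 ± 0.15 in fetuses, a difference of -0.82 (adjusted p = 0.0465) and -0.77 within slide 1. The single maternal pair has no spread of its own, and the test gives it that of the fetal pairs.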

How the results depend on the processing

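Of 604 alternative values of the members, 511 kept their direction and side of the threshold or moved by less than the replicate spread, 20 lost a call, 24 gained one, 36 turned and 13 moved. The number of fetal members called, 2, became 0 without Cy3 non-uniform spots (which left 2 members), 0 with ratios scaled between arrays, 0 with the pools of 3 only, 4 with FR in Cy5 and 5 with FR in Cy3, and 0 to 2 without 1 pool pair. The maternal 0 became 2 with FR in Cy5, 5 with FR in Cy3 and 1 at 1.5-fold. The 0 of the difference became 4 with FR in Cy3 and 0 to 1 without 1 pool pair. The 5 of the level became 3 without loess, 1 without Cy3 non-uniform spots, 3 with no normalization between arrays, 7 with control in Cy5 only, 7 with slide as a fixed block (which gained Apoa2, Apoc1 and Apoe and lost Apoc2) and 3 to 6 without 1 pool pair. With no normalization between arrays, levels turned to -0.56 for Apoa1, -0.33 for Apoa2, -0.55 for Apoc1, -0.47 for Apoc2, -0.65 for Apoe, -0.70 for Apom and -0.36 for Zfp296. The median of all genes there was -0.94, and 6.94% of called genes were higher, against 48.4%. Apom's level was -0.031 with slide as a fixed block and within slide 1. With FR in Cy5, the fetal ratio turned to 0.40 for Apoa2, -0.0085 for Apob, 0.56 for Apoc1 and 0.19 for Apom, the maternal to 1.23 for Apoc2 and 1.07 for Apoe, and the difference to 0.098 for Apoa1, 0.54 for Apoa2, 0.11 for Apoc1, 0.065 for Apoc2, 0.58 for Apoc3 and 0.14 for Apoe. With FR in Cy3, fetal Apoe was -0.55 and the Apob difference -0.51. Fetal Apob was -0.065 without loess, -0.12 without Cy3 non-uniform spots and -0.0076 over all probes. Without those spots Mylip was -0.11 and Saa1 0.000345. The difference was -0.0058 for Apoa4 with processed signals and -0.0032 for Apob at offset 10. Without 1 pool pair, fetal means ran from -0.13 to 0.0495 for Apoa2, -0.058 to 0.17 for Apob, -0.50 to 0.14 for Apoc3 and -0.13 to 0.0603 for Apom, and differences from -0.0399 to 0.54 for Apoa4, -0.11 to 0.12 for Apob and -0.62 to 0.025 for Apoc3. Over all genes, the fetal count of 5421 became 2972 without loess (23.8% of them higher, against 44.3%), 3168 without Cy3 non-uniform spots, 0 when scaled or without the pools of 6, and 2826 without pair 1 of the pools of 3. The maternal 417 became 119 without loess, 872 with processed signals, 682 with FR in Cy5, 681 with FR in Cy3 and 1335 at 1.5-fold. The 782 of the difference became 202 without loess (60.9% higher, against 49.2%), 1651 with processed signals, 73 when scaled, 1193 without pair 2 of the pools of 3, and 0 without the pools of 6 or with slide as a fixed block, where 3197 and 2424 were at an unadjusted p under 0.05. The 7511 of the level became 4338 without Cy3 non-uniform spots, 4706 without pair 1 of the pools of 3, and 958 higher with 12855 lower with no normalization between arrays. With slide as a fixed block, the only spread is that between the 2 pools of 3, so its calls do not measure the spread of the pools compared. Unless the setting itself leaves out spots or pools, the cause was not tested. Slide as a random block could not be fitted, and without Cy3 non-uniform spots no member was left for the maternal ratio or the difference. FR and control pools were compared within each array. Between mothers and fetuses no paired analysis was possible because these groups share fewer than 2 replicate numbers. The number of arrays, and in mothers the single pool pair, limits the precision.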
